A study of Mus musculus with 9 samples.

Results

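Chemokines are small secreted proteins that direct the movement of cells, and this account covers the chemokine and chemokine receptor genes of mouse cortex. The members were the genes whose symbol begins with Ccl, Cxcl, Ccr or Cxcr followed by a digit, together with Cx3cl1, Xcl1, Xcr1 and Ackr1 to Ackr4. Genes with names of the CCR4-NOT kind and pseudogene symbols were left out. The rule took 61 of the 34714 gene symbols in the table, made up of 39 ligands, 18 receptors and 4 atypical receptors. It used symbols and no measured value.

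RNA was sequenced from the cortex of 9 mice, namely 3 naive animals, 3 animals with EAE and 3 animals with EAE that were given Au18(L-NIBC)14, a gold nanocluster. EAE (experimental autoimmune encephalomyelitis) is an immune disease of brain and spinal cord that serves to model multiple sclerosis. The naive mice are titled as controls, and neither they nor the untreated EAE mice carry a treatment label. The sources used here do not give strain, sex, age, dose, sampling day or the way EAE was induced. The EAE libraries serve in the comparison with naive mice and again in the comparison with treated mice, so those comparisons are not independent.

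A chemokine binds receptors coupled to G proteins on leukocytes and on some resident cells, and the receptors on a cell decide which ligands it follows. Inflammatory ligands are made after signals such as interferon or tumour necrosis factor and draw monocytes, neutrophils and T cells, while homeostatic ligands are made without such signals. Atypical receptors bind chemokines without G protein signalling and remove or transport them. In the brain, neurons make the membrane-bound ligand Cx3cl1, and microglia carry its receptor Cx3cr1.

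Total counts were between 26972179 and 45243553 per library, so a limit of 3 counts lay between 0.067 and 0.11 CPM (counts scaled to library size, here with TMM factors). The sum over all members was between 810.0 and 1166 CPM. Markers of cortical excitatory neurons summed to 1683 to 1770 CPM in naive, 1442 to 1645 in EAE and 1795 to 1885 in treated cortex, without overlap between groups. Single libraries differed in markers of neighbouring tissue: choroid plexus genes summed to 892 CPM in EAE replicate 1 against 7.42 to 103 in the other libraries, and meningeal fibroblast genes reached 231 CPM in EAE replicate 2 against 35.3 to 156 elsewhere. The summed level of striatal neuron markers varied between 179 and 1286 CPM: 1286 in naive replicate 1, 1111 in EAE replicate 2 and 821 in treated replicate 2, the highest library of each group. Red cell genes summed to 7.15 to 23.6 CPM in EAE, 131 to 175 in naive and 102 to 380 in treated cortex, and edgeR called 2 of the 5 lower in EAE than in naive cortex, Hba-a2 (log2 fold change -3.31, adjusted p 0.0418) and Hbb-bs (-3.36, adjusted p 0.0478). Hba-a2 was also called higher in treated than in untreated EAE (4.30, adjusted p 0.0456). The part of these differences in the results below was not tested.

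The promoters of 4 inflammatory ligands that lie side by side in pairs are shown first, because the members of each pair were high in the same EAE libraries; they were chosen after their values were seen. The windows are the 250 bases before the RefSeq start site on build GRCm38.p6, written 5′ to 3′ on the strand of the gene. Capitals mark matches to the kappa B pattern GGGNNNNNCC or to the interferon response core GAAANNGAAA, searched on both strands. Cxcl10 (chr5:92348890-92349139, minus strand) and Cxcl9 (chr5:92328080-92328329, minus strand) encode ligands of Cxcr3, and Ccl12 (chr11:82101595-82101844, plus strand) and Ccl8 (chr11:82114935-82115184, plus strand) belong to the monocyte chemoattractant cluster.
Cxcl10: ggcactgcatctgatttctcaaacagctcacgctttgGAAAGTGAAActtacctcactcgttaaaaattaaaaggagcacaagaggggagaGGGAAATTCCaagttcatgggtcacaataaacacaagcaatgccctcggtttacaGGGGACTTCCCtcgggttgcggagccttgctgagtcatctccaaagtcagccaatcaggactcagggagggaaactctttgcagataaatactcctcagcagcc
Cxcl9: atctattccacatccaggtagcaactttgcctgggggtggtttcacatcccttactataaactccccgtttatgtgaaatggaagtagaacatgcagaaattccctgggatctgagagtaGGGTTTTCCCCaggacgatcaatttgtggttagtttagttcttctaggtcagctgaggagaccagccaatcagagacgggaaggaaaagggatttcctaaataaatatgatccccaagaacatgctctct
Ccl12: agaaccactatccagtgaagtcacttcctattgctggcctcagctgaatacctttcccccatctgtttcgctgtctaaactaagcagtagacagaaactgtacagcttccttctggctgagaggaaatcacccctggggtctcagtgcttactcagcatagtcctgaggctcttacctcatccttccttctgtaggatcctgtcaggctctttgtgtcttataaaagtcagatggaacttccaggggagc
Ccl8: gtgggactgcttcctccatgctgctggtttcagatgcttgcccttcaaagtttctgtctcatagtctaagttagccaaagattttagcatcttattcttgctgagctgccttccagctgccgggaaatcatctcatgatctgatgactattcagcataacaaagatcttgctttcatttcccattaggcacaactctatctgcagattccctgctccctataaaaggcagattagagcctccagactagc

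The Cxcl10 window held the interferon response core GAAAGTGAAA from 213 to 204 bases before the start. It also held the kappa B match GGGAAATTCC from 159 to 150 bases before it, and a run from 104 to 94 in which matches overlap. In the Cxcl9 window a run from 130 to 120 bases before the start held overlapping kappa B matches. The windows of Ccl12 and Ccl8 held neither pattern in these letters. Among 32851 RefSeq promoter windows of the same length, 45.8% held a kappa B match, 2.98% the interferon response core and 7.02% the pattern TTCNNNGAA of STAT binding. Of the 61 members 46 had at least 1 window, and of their 53 windows 50.9% held a kappa B match, 5.66% the interferon response core and 7.55% the STAT pattern. Members that reach 1 CPM had 28 of these windows. Of those, 35.7% held a kappa B match, 7.14% the interferon response core and 7.14% the STAT pattern. A match describes the letters and not the binding of a factor.

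Of the 61 members, 27 reached 1 CPM in at least 1 of the 9 libraries: 20 ligands, 4 receptors, among them Ccr1, Ccr2 and Cxcr4, and the atypical receptors Ackr1, Ackr2 and Ackr3. In all 9 libraries 12 members reached that level, among them Cx3cl1, Ccl27a, Ccl27b, Cxcl14, Cxcl12, Ccl21b, Ccl21c, Ccl25, Ccl28, Ackr2 and Ackr3. Just inside the limit were Ccl8 with a highest value of 1.2 CPM and Ccl2 and Ccl21d with 1.35. Just outside it were Cxcl5 with 0.992 CPM, Ccr10 with 0.937 and Ccr6 with 0.743.

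The other 34 members stayed below 1 CPM in every library. They included the ligands Ccl1, Ccl3, Ccl4, Ccl7, Ccl11, Ccl19, Ccl20, Ccl21a, Ccl22, Ccl24, Ccl26, Cxcl1, Cxcl2, Cxcl3, Cxcl5, Cxcl13, Cxcl15, Cxcl17 and Xcl1. The receptors among them were Ccr1l1, Ccr3, Ccr4, Ccr6, Ccr7, Ccr8, Ccr9, Ccr10, Cxcr1, Cxcr2, Cxcr3, Cxcr5, Cxcr6, Xcr1 and Ackr4. Cxcl2 and Cxcl15, ligands that act on neutrophils, had no count in any library, and 13 members had at most 10 counts over all 9. Most receptors of the inflammatory ligands described below, Cxcr3 and Cxcr6 included, were thus close to the limit of these libraries.

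Levels of different genes were compared per kilobase of exon, with lengths from GENCODE M21. On that scale Cx3cl1 was the most abundant member in naive cortex, at 164.5 ± 29.8 CPM per kilobase (SD, n = 3). Ccl27a at 56.5 and Cxcl14 at 52.4 followed and their naive libraries overlapped. Next came Cx3cr1, which is no member, at 11 CPM per kilobase, and then Cxcl12 at 8.28, Ackr3 at 2.24 and Ccl17 at 1.75. Each of the steps from Cx3cl1 to Ccl27a, from Cxcl14 to Cx3cr1, from Cx3cr1 to Cxcl12, from Cxcl12 to Ackr3 and from Ccl17 to Ackr2 separated the naive libraries fully, while Ackr3 and Ccl17 overlapped.

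From Ackr2 (0.954 CPM per kilobase in naive cortex) down to Ccr2 (0.0387), each member overlapped the next in its naive libraries. Cxcl10 stood at 0.117 CPM per kilobase, and Cxcl9 was at 0. Ccl21b and Ccl27b were left out of this order because every 31-base stretch of their exons occurs in another gene as well, and Ccl21c and Ccl21d had no exon length by symbol. Of the stretches of Ccl27a 57.0% are shared with copies, so the split of counts within these families is uncertain.

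**Figure D1:**
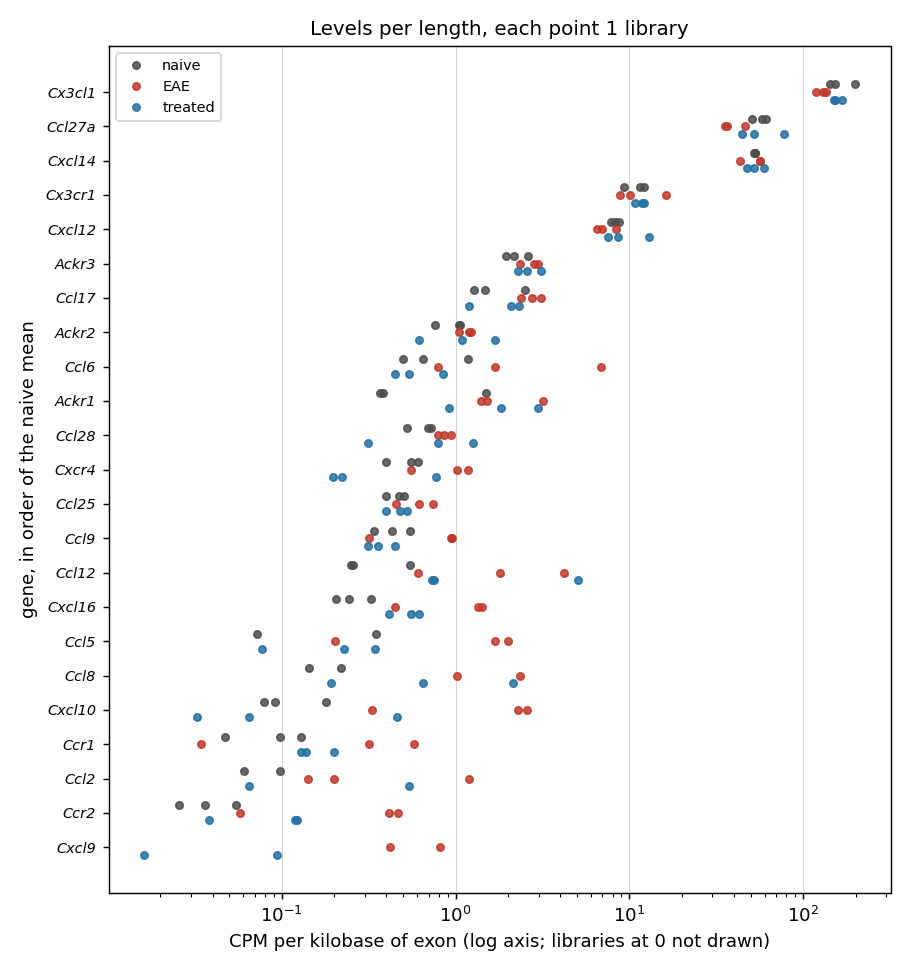
Levels of 22 members that reach 1 CPM and of Cx3cr1, in CPM per kilobase of exon on a log axis, with 1 point for each library and genes ordered by the naive mean. The few homeostatic ligands at the top, led by Cx3cl1 at 164.5 CPM per kilobase in naive cortex, stand above the inflammatory genes in naive cortex, while single EAE and treated libraries of Ccl6 and Ccl12 reach 6.90 and 5.03 CPM per kilobase.

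EAE was compared with naive cortex to ask which chemokine genes differ with the disease. Inflammatory ligands and the monocyte receptor Ccr2 had higher levels in EAE replicates 2 and 3, while EAE replicate 1 stayed close to the naive libraries for most of them. The two-sided quasi-likelihood test of edgeR put no member past an adjusted p of 0.05, with log2 fold changes between 2.02 and 3.91 for Ccl6, Cxcl16, Ccl12, Ccl5, Ccr2 and Cxcl10. The homeostatic neuronal ligand Cx3cl1 and the skin-type ligand Ccl27a were lower in every EAE library than in any naive one.

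The filter on low counts asks for enough counts in at least 3 libraries, and 30 members passed it. These were 25 of the 27 members that reach 1 CPM (Cxcl9 and Ccl2 did not pass) and Cxcl5, Ccl21a, Ccr9, Ccr10 and Ackr4. The smallest adjusted p of a member was 0.0596, for Cxcl16. With edgeR, 0 of the 30 tested members were called, against 0.987% of all 18644 tested genes. At an unadjusted p under 0.05 there were 11 of 30 members (36.7%), 9 higher and 2 lower in EAE, against 16.4% of all genes. DESeq2 called 5 of 31 members (16.1%), against 5.59% of all genes. Those were Ccl5, Ccl6, Ccr2, Cxcl10 and Cxcl16, and in each the DESeq2 log2 fold change was positive and above 1.

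The 3 EAE libraries lay wholly above the naive ones in 7 of 30 members (23.3%; 12.2% of all genes) and wholly below them in 2 (6.67%; 11.8% of all genes). The members wholly above were Cxcl10, Cxcl16, Ccr2, Ccl12, Ccl28, Ccr9 and Ccr10. The median log2 fold change was 0.49 over the 30 members and -0.01 over all genes, and 23 members were above 0. In bulk tissue, more cells of a type and more RNA per cell cannot be told apart.

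Among the ligands of Cxcr3, which guide activated T cells, Cxcl10 is made by many cell types after interferon. Its level was 0.179, 0.403 and 0.207 CPM in naive replicates 1 to 3, then 0.746, 5.79 and 5.14 in EAE, and 0.146, 1.04 and 0.0735 in treated cortex. All EAE libraries were above all naive ones, with EAE replicate 1 far below the other EAE libraries and treated replicate 2 the highest of its group. On the log2 scale EAE exceeded naive by 3.91 ± 1.02 (SE, n = 3 per group; adjusted p 0.108 by edgeR, 0.000662 by DESeq2). In the exons of Cxcl10 (chromosome 5, 92346638 to 92348889, minus strand), 5.91% of bases overlap Art3 on the opposite strand, and Art3 stood at 2.42 to 4.49 CPM in the 9 libraries.

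Cxcl9, the neighbour of Cxcl10 and induced mainly by interferon gamma, had no count in any naive library and none in EAE replicate 1. EAE replicates 2 and 3 had 1.26 and 2.46 CPM, and the treated libraries 0.0488, 0.284 and 0. In counts this was 0 in naive, 110 in EAE and 14 in treated cortex. The EAE mean was 41.9-fold a limit of 3 counts over the naive group, which is 0.0297 CPM. If both mates of a pair are counted, that limit is too low and the fold too large. Summed, the Cxcr3 ligands stood at 0.746, 7.05 and 7.6 CPM in EAE and at 0.179 to 0.403 in naive cortex. No library had more than 0.294 CPM of their receptor Cxcr3.

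Cxcl16 encodes a membrane-bound ligand of Cxcr6 that also acts as a scavenger receptor. It measured 0.983, 0.733 and 0.620 CPM in naive cortex, 1.36, 4.30 and 4.06 in EAE and 1.86, 1.68 and 1.25 in treated cortex. Every EAE library and every treated library exceeded every naive one. The log2 fold change of EAE against naive was 2.04 ± 0.42 (SE; adjusted p 0.0596 by edgeR and 0.000432 by DESeq2). Without EAE replicate 1 it was 2.41, with an edgeR adjusted p of 0.00798. Of its exon bases 18.3% overlap Zmynd15 on the opposite strand, a gene with 0.464 to 1.23 CPM in these libraries. Cxcr6, its receptor, reached 0.646 CPM in EAE replicate 2 and 0.278 at most elsewhere.

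Monocyte chemoattractants are ligands of Ccr2 for the most part. Ccl12 measured 0.134, 0.293 and 0.138 CPM in naive cortex, 0.324, 2.26 and 0.972 in EAE and 0.391, 2.70 and 0.404 in treated cortex. Every EAE and every treated library was above every naive one, and replicate 2 was the highest in both disease groups. EAE exceeded naive on the log2 scale by 2.68 ± 1.01 (SE; edgeR adjusted p 0.236, DESeq2 0.051).

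Ccl8, which lies next to Ccl12 and whose receptor use in the mouse is less settled, measured 0.112, 0.0733 and 0 CPM in naive cortex, 0, 1.2 and 0.521 in EAE and 0.0976, 1.09 and 0.331 in treated cortex. As with Ccl12, EAE and treated replicate 2 had the highest values, while EAE replicate 1 had no count and the groups overlapped. Ccl2, the main attractant of monocytes through Ccr2, reached 1.35 CPM in EAE replicate 3 and at most 0.616 in any other library. Ccl7, which also acts on Ccr2, had no count in naive cortex and 0.162, 0.226 and 0.486 CPM in EAE. Its treated libraries had 0.195, 0.237 and 0.184 CPM, all above naive. The EAE mean was 9.82-fold the naive limit of 3 counts, with the same reserve about mates as for Cxcl9.

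Ccl5 attracts monocytes and T cells. It measured 0.335, 0 and 0.0689 CPM in naive cortex, 0.195, 1.62 and 1.91 in EAE and 0.220, 0.332 and 0.0735 in treated cortex. EAE replicate 1 lay within the naive range, and the other EAE libraries were above all remaining libraries. The log2 fold change of EAE against naive was 2.97 ± 0.99 (SE; adjusted p 0.183 by edgeR, 0.0474 by DESeq2), and 4.98 without naive replicate 1.

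Ccl6, a rodent Ccr1 ligand of myeloid cells, measured 0.894, 2.13 and 1.17 CPM in naive cortex, 1.43, 3.04 and 12.4 in EAE and 1.51, 0.972 and 0.808 in treated cortex. A single library, EAE replicate 3, held most of the difference, and EAE replicate 1 lay within the naive range. The log2 fold change was 2.02 ± 0.74 (SE; adjusted p 0.227 by edgeR, 0.035 by DESeq2), and 0.70 without EAE replicate 3. Its neighbour Ccl9, also a Ccr1 ligand, was at 0.973, 2.88 and 2.92 CPM in EAE and 1.03 to 1.68 in naive cortex (log2 fold change 0.74, edgeR adjusted p 0.399). Ccl3 and Ccl4, inflammatory ligands of myeloid and T cells, stayed at or below 0.451 and 0.356 CPM. Ccl3 was at 0.259, 0.323 and 0.451 CPM in EAE, at most 0.112 in naive and at most 0.147 in treated cortex. Ccl4 in EAE overlapped naive cortex and was wholly above treated cortex. Both had too few counts for the test.

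Among the receptors, Ccr2 marks inflammatory monocytes. It measured 0.246, 0.367 and 0.172 CPM in naive cortex, 0.389, 2.78 and 3.16 in EAE and 0.830, 0.806 and 0.257 in treated cortex. EAE replicate 1 was only just above the naive range, so the groups did not overlap. The fitted log2 difference of EAE from naive was 3.0 ± 0.76 (SE; adjusted p 0.0944 by edgeR, 0.00236 by DESeq2), and 3.5 without EAE replicate 1 (edgeR adjusted p 0.014). Ccr1, a receptor of monocytes and neutrophils, was at 0.0973, 0.905 and 1.63 CPM in EAE and at 0.134 to 0.367 in naive cortex, for a log2 fold change of 1.80 ± 0.78 (edgeR adjusted p 0.294; 1.01 without EAE replicate 3).

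Cxcr4, the receptor of Cxcl12, was at 1.01, 1.84 and 2.12 CPM in EAE, at 0.715 to 1.10 in naive and at 0.356 to 1.39 in treated cortex. Its EAE range overlapped the naive one. Low receptors with enough counts for the test were Ccr9 (receptor of Ccl25) and Ccr10 (receptor of Ccl27a and Ccl28), which were wholly above naive in EAE with log2 fold changes of 1.33 and 0.74 and edgeR adjusted p of 0.169 and 0.324. Both stayed below 1 CPM. Of the exon bases of Ccr9 21.5% overlap other genes, Slc6a20a on the opposite strand among them. The share of Ccr9 counts that belongs to those genes is not known.

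Markers of several myeloid cell types were also higher in some of the EAE libraries. The 6 monocyte markers summed to 5.61 to 6.17 CPM in naive cortex, 11, 41.4 and 115 in EAE and 5.69 to 14.8 in treated cortex, led by Lyz2 with 95.4 CPM in EAE replicate 3. The 5 macrophage markers of meninges and vessels summed to 5.97 to 7.03 CPM in naive, 10.4, 29.8 and 10.6 in EAE and 3.38 to 9.77 in treated cortex. The 6 microglia markers summed to 246 to 295 CPM in naive, 260, 488 and 323 in EAE and 272 to 327 in treated cortex. Of the dendritic cell markers, Itgax was at 0.0733 to 0.276 CPM in naive, 0.357, 3.56 and 2.6 in EAE and 0.379 to 0.441 in treated cortex (log2 fold change of EAE against naive 3.66, adjusted p 0.0635 by edgeR and 0.000161 by DESeq2). Zbtb46 was called lower by edgeR in EAE than in naive cortex, with a log2 fold change of -0.49 (adjusted p 0.0432), and the dendritic cell list as a whole summed to 26.7 to 33.8 CPM in naive, 24.9 to 32.4 in EAE and 27.9 to 30.3 in treated cortex.

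The 7 T cell markers in the table summed to 20.9, 5.20 and 2.45 CPM in naive, 10.4, 16.8 and 3.40 in EAE and 4.61, 11.7 and 3.82 in treated cortex. Cd4 made up most of that sum in the highest library of each group. It was at 19.0 CPM in naive replicate 1, 12.9 in EAE replicate 2 and 9.98 in treated replicate 2. These libraries were also the highest of their groups for the striatal markers. In EAE replicate 3 Cd4 was 0.590 of the 3.40 CPM, and in naive replicate 3 it was 1.10 of 2.45. Cd3d, Cd3e and Cd3g were each at or below 0.259 CPM in every library, with Cd3d at 0 in EAE replicate 3. The 7 neutrophil markers summed to at most 0.241 CPM in naive cortex and to 0.746, 0.937 and 2.46 in EAE. Of the monocyte, macrophage, microglia, T cell and neutrophil markers tested between EAE and naive cortex (4, 5, 6, 2 and 1), edgeR called 0 of each; 3, 2, 1, 0 and 1 had an unadjusted p under 0.05, and DESeq2 called 3, 1, 0, 0 and 0. Their part in the chemokine values was not tested.

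**Figure D2:**
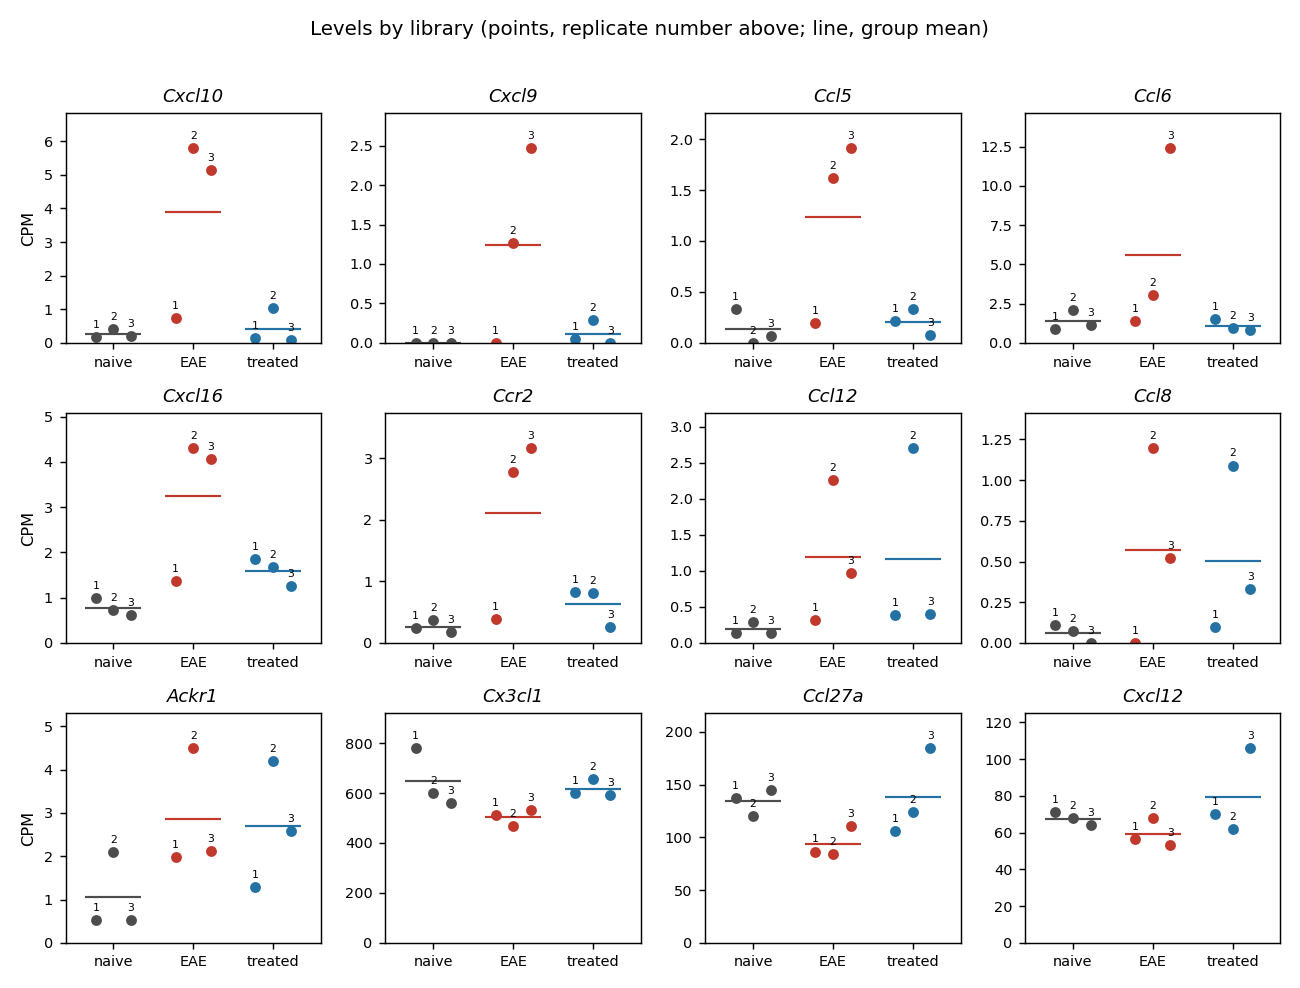
CPM of 12 members by library, with replicate numbers above the points and the group mean as a line; each panel has its own linear axis from 0. EAE replicates 2 and 3 lie above EAE replicate 1 for Cxcl10, Cxcl9, Ccl5, Ccl6, Cxcl16, Ccr2, Ccl12 and Ccl8, and treated replicate 2 is the highest treated library for Cxcl10, Cxcl9, Ccl5, Ccl12, Ccl8 and Ackr1.

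Across the 30 tested members EAE replicate 1 was the lowest EAE library in 17 (56.7%; 30% of all tested genes) and EAE replicate 3 the highest in 17 (56.7%; 34.2% of all genes). Treated replicate 2 was the highest treated library in 15 (50%; 29.5% of all genes).

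Homeostatic ligands made up most of the chemokine RNA. Cx3cl1 (chromosome 8, plus strand), the membrane-bound ligand of neurons, measured 779.6, 600.2 and 559.9 CPM in naive cortex, 513.5, 466.8 and 531.2 in EAE and 599.1, 656.9 and 590.7 in treated cortex. All EAE libraries were below all naive and all treated libraries, while naive and treated overlapped. The 6 markers of cortical excitatory neurons, with the sums given above, were also lowest in EAE, with a median log2 fold change of -0.25 for EAE against naive and 0.25 for treated against EAE. Their part in the values of Cx3cl1 and Ccl27a was not tested. The log2 fold change of EAE against naive was -0.36 ± 0.12 (SE; edgeR adjusted p 0.176, DESeq2 0.0759), and -0.20 without naive replicate 1. Its microglial receptor Cx3cr1 was at 41.8 to 54.9 CPM in naive, 39.9 to 73.2 in EAE and 48.5 to 54.5 in treated cortex, with a log2 fold change of 0.10 (edgeR adjusted p 0.87). Of the 30 tested members, only Cx3cl1 was wholly lower in EAE than in both other groups.

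Ccl27a, a Ccr10 ligand best known from skin, measured 137.6, 120.6 and 145.0 CPM in naive cortex, 86.6, 84.3 and 110.6 in EAE and 105.7, 124.2 and 184.5 in treated cortex. The EAE libraries were wholly below the naive ones and overlapped the treated ones. EdgeR put the log2 fold change of EAE against naive at -0.52 ± 0.20 (SE; adjusted p 0.236). Its near copy Ccl27b was at 22.7 to 38.5 CPM in naive and 13 to 31.8 in EAE, with overlap (-0.60, adjusted p 0.56).

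Cxcl14, whose receptor is not settled, and Cxcl12, the retention signal read by Cxcr4 and Ackr3, overlapped between EAE and naive cortex. Cxcl14 ranged from 94.7 to 96.6 CPM in naive and from 79.0 to 103.7 in EAE, with a log2 fold change of -0.01 and a 95% interval of -0.27 to 0.24. Cxcl12 ranged from 64.0 to 71.1 CPM in naive and from 53.4 to 68.1 in EAE. EAE replicates 1 and 3 were below every naive library. Its log2 fold change was -0.19, with a 95% interval of -0.60 to 0.22 (edgeR adjusted p 0.675). The Ccr7 ligand Ccl21b, which guides lymphocytes and dendritic cells, was at 6.89 to 11.2 CPM in naive and 9.24 to 16.8 in EAE. Its copies Ccl21c and Ccl21d ranged from 1.61 to 4.27 and from 0.415 to 1.35 CPM over all 9 libraries.

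The remaining homeostatic ligands were low. Ccl28, a mucosal ligand of Ccr10, was at 2.55 to 3.52 CPM in naive and 3.81 to 4.54 in EAE, without overlap, with a log2 fold change of 0.41 (edgeR adjusted p 0.679). Ccl25, the thymic and gut ligand of Ccr9, was at 2.96 to 3.78 CPM in naive and 3.37 to 5.51 in EAE. Ccl17, a Ccr4 ligand of dendritic cells, was at 0.654 to 1.28 CPM in naive and 1.23 to 1.59 in EAE.

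Of the atypical receptors, Ackr1 is found on venules and red cells and carries inflammatory chemokines across the vessel wall. It measured 0.536, 2.09 and 0.517 CPM in naive cortex, 1.98, 4.49 and 2.12 in EAE and 1.29, 4.20 and 2.57 in treated cortex. Replicate 2 was the highest library in each group, and EAE and naive overlapped. The log2 fold change of EAE against naive was 1.48 ± 0.64 (SE; edgeR adjusted p 0.296), and 2.43 without naive replicate 2. Of its exon bases 25.7% overlap Cadm3 on the same strand, an abundant gene at 451.3 to 606.1 CPM in these libraries, so the share of Ackr1 counts that belongs to Cadm3 is not known. Ackr2, which degrades inflammatory CC ligands, ranged from 1.93 to 5.24 CPM, and Ackr3, which takes up Cxcl12, from 6.49 to 10.4 CPM over all libraries, with overlap between EAE and naive in both.

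Beyond the members, a list of 12 other genes of the chemokine system (such as Cx3cr1, Pf4, Adam10 and Adam17) had 11 tested genes. Only Cmklr1, the receptor of the attractant chemerin, was called there by edgeR between EAE and naive cortex. It was at 1.81, 2.42 and 1.86 CPM in naive and 3.86, 7.24 and 5.0 in EAE, with a log2 fold change of 1.41 (adjusted p 0.0334). DESeq2 called Cmklr1 and Cd74, the invariant chain of antigen presentation, which was at 2.46 to 3.89 CPM in naive and 8.40, 69.1 and 54.0 in EAE (log2 fold change 3.87, adjusted p 0.0734 by edgeR and 0.000202 by DESeq2). Of 35 tested genes that carry chemokine receptor signals inside the cell, of 8 tested inducers of chemokine genes and of 12 tested leukocyte adhesion genes, edgeR called 0 in any of the 3 comparisons. Between EAE and naive cortex 11, 1 and 3 of them had an unadjusted p under 0.05, and DESeq2 called 9, 1 (Irf7) and 1 (Itgb2), against 16.4% and 5.59% of all genes. Between treated and untreated EAE 8, 1 and 3 did, and DESeq2 called 2 (Rac2 and Jak2), 0 and 1 (Itgb7), against 15.1% and 3.69% of all genes; between treated and naive cortex 2, 0 and 0 did, and DESeq2 called 0. Log2 fold changes of EAE against naive were above 0 in 28 of the 35 signalling genes (median 0.18), in 8 of the 8 inducers (median 0.23) and in 11 of the 12 adhesion genes (median 0.49), against 49% of all tested genes (median -0.01).

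**Figure D3:**
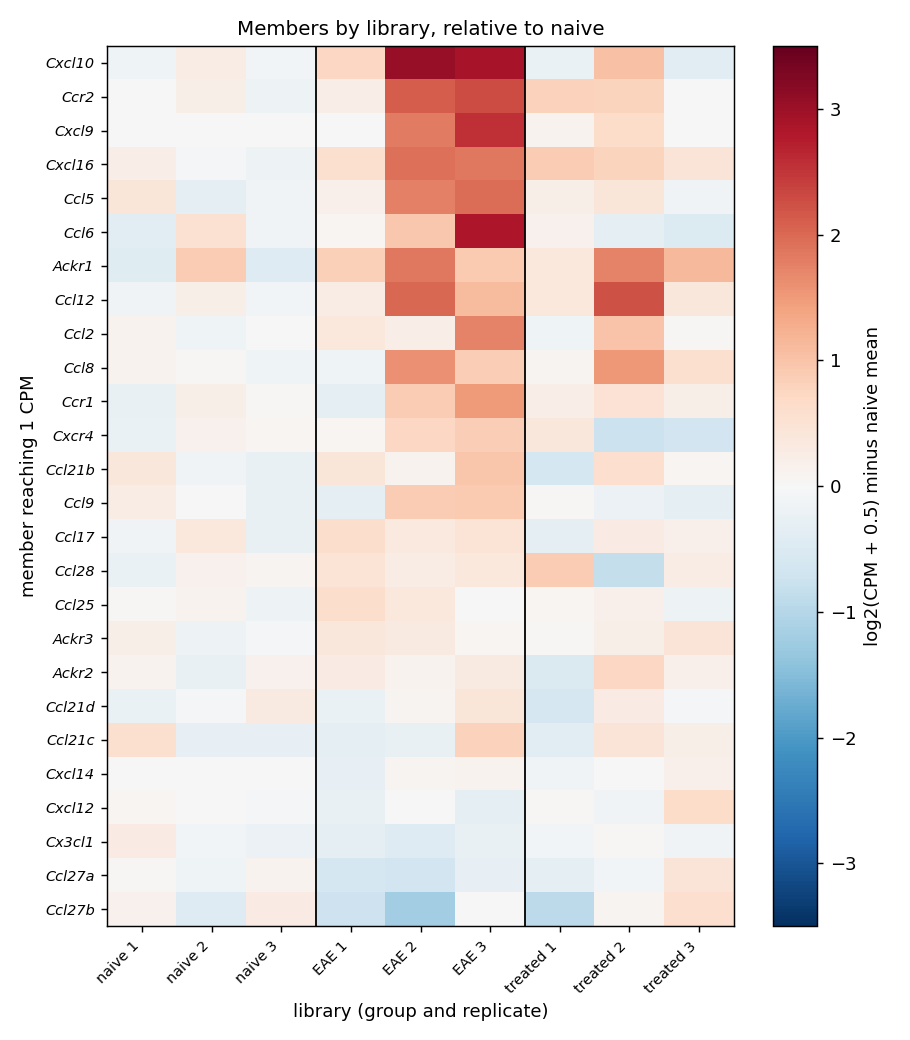
Log2(CPM + 0.5) of 26 members that reach 1 CPM, minus the naive mean of each gene, with libraries in columns and genes ordered by the EAE mean. Most upper rows are darkest in EAE replicate 2 or 3, with 5.79 and 5.14 CPM of Cxcl10. Ccl12 is darkest in treated replicate 2 (2.70 CPM), and Ackr1 there (4.20 CPM) exceeds EAE replicate 3 (2.12 CPM). The lowest rows, with Cx3cl1 and Ccl27a, are below naive in EAE.

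Treated EAE cortex was compared with untreated EAE cortex to ask which chemokine genes differ with Au18(L-NIBC)14. Several inflammatory members had lower levels in treated mice than in EAE replicates 2 and 3, with Cxcl10, Ccl5 and Ccl6 the furthest apart of the tested members, while the means of Ccl12, Ccl8 and Ackr1 lay close to those of EAE. Cx3cl1 was higher in every treated library than in any EAE library. EdgeR called 0 of the 30 members, against 0.22% of all genes, and the smallest adjusted p was 0.183, for Cxcl10.

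At an unadjusted p under 0.05 there were 11 of 30 members (36.7%; 15.1% of all genes), with 4 higher and 7 lower in treated cortex. Those lower were Cxcl10, Ccl6, Ccl5, Ccr2, Cxcl16, Cxcr4 and Ccl9, and those higher were Cxcl5, Ccl27a, Cx3cl1 and Cxcl12. DESeq2 called 2 of 31 members, Cxcl10 and Ccl6, both lower (6.45%; 3.69% of all genes). The treated libraries were wholly above EAE in 2 members (6.67%; 9.94% of all genes), Cx3cl1 and Cxcl5, and wholly below in 1, Ccl17 (3.33%; 9.28% of all genes). The median log2 fold change was -0.23 over the 30 members and 0.00 over all genes, and it was -0.60 without treated replicate 2 and -0.45 without EAE replicate 1.

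Cxcl10, with the per-library values given above, had a log2 fold change of -3.13 ± 0.95 (SE, n = 3 per group; adjusted p 0.183 by edgeR and 0.0114 by DESeq2) between treated and untreated EAE. The groups overlapped, with treated replicate 2 at 1.04 CPM above EAE replicate 1 at 0.746, and without treated replicate 2 the value was -5.04. For Ccl6 the log2 fold change was -2.34 ± 0.75 (adjusted p 0.203 by edgeR, 0.0141 by DESeq2), again with overlap, and it was -1.02 without EAE replicate 3. For Ccl5 it was -2.48 ± 0.94 (edgeR adjusted p 0.262), and Ccr2 had one of -1.70 ± 0.68 (0.287) and Cxcl16 one of -1.01 ± 0.40 (0.272).

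The log2 fold changes of Ccl12 and Ccl8 between treated and untreated EAE were 0.00 ± 0.90 and -0.15 ± 1.09 (SE). Their 95% intervals were wide, at -2.03 to 2.03 and -2.62 to 2.31. Replicate 2 was far above the other treated libraries for both. Without treated replicate 2 the values of Ccl12 and Ccl8 were -1.58 and -1.49. Without EAE replicate 2 they were 0.87 and 0.99. Ackr1 likewise had a log2 fold change of -0.09 ± 0.60. The Ccr2 group was summed over Ccl2, Ccl7, Ccl12 and Ccl8, although the receptor use of mouse Ccl8 is less settled. That sum was 0.714, 3.85 and 3.33 CPM in EAE and 0.683, 4.65 and 0.992 in treated cortex. The sum of the Cxcr3 ligands in treated cortex was 0.195, 1.33 and 0.0735.

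Between treated and untreated EAE, Cx3cl1 differed by 0.29 ± 0.12 on the log2 scale (SE; edgeR adjusted p 0.3). Ccl27a had one of 0.56 ± 0.20 (adjusted p 0.235) and Cxcl12 one of 0.42 ± 0.18 (adjusted p 0.327), in both cases with treated replicate 3 the highest library. Without it they were 0.29 and 0.16. Cxcl5, a ligand of the neutrophil receptor Cxcr2, was at 0.195 to 0.323 CPM in EAE and at 0.488, 0.498 and 0.992 in treated cortex, the log2 fold change being 1.34 ± 0.45 (adjusted p 0.213). Cxcl14 differed by 0.03 on the log2 scale, with an interval of -0.22 to 0.28. Of the related lists, 0 of 11 chemokine system genes outside the members were called by edgeR between treated and untreated EAE, with 1 at an unadjusted p under 0.05 and 0 called by DESeq2.

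**Figure D4:**
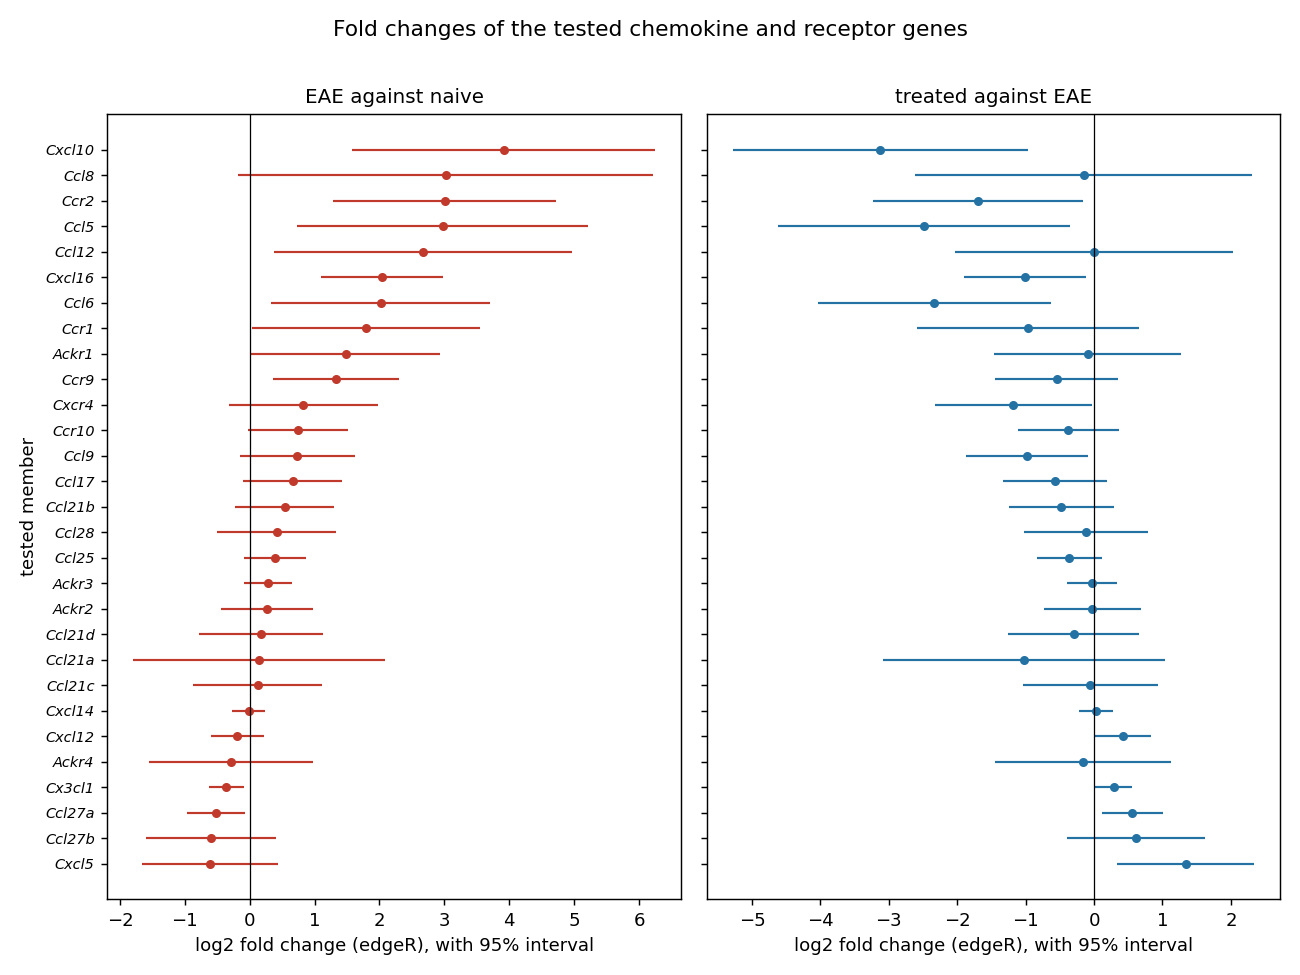
Log2 fold changes of 29 tested members with 95% intervals from edgeR, for EAE against naive on the left and treated against untreated EAE on the right, in the order of the left panel. Cxcl10 is at the top with 3.91 on the left and -3.13 on the right; the EAE libraries enter both panels, so the panels are not independent.

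Treated EAE cortex was last compared with naive cortex. Ccl12 and Cxcl16 were higher in each treated library than in any naive one, as were, by less than 0.01 CPM, Ccr1 and Cxcl5. EdgeR called 0 of the 30 members and 0% of all genes, with 2 members at an unadjusted p under 0.05 (6.67%; 1.71% of all genes), Ccl12 and Cxcl16. DESeq2 called 0 of 59 members, against 0.0109% of all genes. The treated libraries were wholly above naive in 5 members (16.7%; 3.51% of all genes) and wholly below in 0 (0%; 2.73% of all genes).

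The log2 fold change of treated against naive was 2.68 ± 1.01 (SE) for Ccl12 (1.09 without treated replicate 2) and 1.02 ± 0.42 for Cxcl16. Without treated replicate 2, the median of the tested members went from 0.23 to 0.02, against 0.01 over all genes. Cxcl10 had a log2 fold change of 0.79 ± 1.09, which was -1.12 without treated replicate 2. Cx3cl1 differed by -0.07, with an interval of -0.34 to 0.20.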

How the data were processed

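Per the labels' protocols, poly(A) RNA of cortex was sequenced on an Illumina HiSeq. Per the series' design text, FastQC and fastp were used for quality control and trimming, Hisat2 for alignment, bowtie2 for quantification and DESeq2 for calls. The submitters' processing notes give FastQC 0.11.8 and build mm10. The sources used here do not give the annotation or strand setting. Raw counts per gene symbol were deposited by the authors, and 9 further columns, which match no sample, were left out. Counts of 2 outnumbered counts of 1 by 3.80 to 4.43 times, so both mates of a pair may be counted, and limits of 3 counts cover counting error only.

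EdgeR 4.0.16 under R 4.3.3 tested the counts (TMM, filterByExpr, glmQLFit with robust set, glmQLFTest; all 9 libraries, group as the only factor), with Benjamini and Hochberg adjustment over 18644 genes at 0.05. DESeq2 1.42.0 was an alternative. The fit was tested on simulated data with the same spread for every gene, where only genes above 1 CPM on average were changed. That test does not speak for low members with a wider spread. Standard errors are the absolute log2 fold change over the square root of F. No source states how the mice of a group were housed or processed, and p-values measure only the spread between these samples.

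The members, lists and tests were chosen with earlier results of these data known. Every member reaching 1 CPM was named with values, except that 1 is not reported here, and of the related lists Cx3cr1 and genes past the threshold; Adam10, Adam17, Pf4, Cd3d, Cd3e, Cd3g and Lyz2 are named as examples, as are Irf7, Itgb2, Rac2, Jak2, Itgb7, Cd4, Cd74 and Itgax, after their values were seen. Low members with values were named after these were seen. Deviations from the group means correlated at 0.204, 0.258 and 0.297 between EAE and treated libraries of the same number. Libraries of different numbers were not compared in this way, so these values do not establish a pairing. No label states a pairing, and the main fit used none. Promoter windows are from RefSeq, exon lengths and overlaps from GENCODE M21, both on GRCm38. Alternatives were other scaling, filters, samples and a replicate block.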

Additional observations from a re-analysis of the deposited data

How the results depend on the processing

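The number of members called by edgeR between EAE and naive cortex was 0. It was 5 with DESeq2, 2 with no filter on low counts (Ccl7 and Cxcl16), and 0 to 2 when single libraries were left out, with 2 (Ccr2 and Cxcl16) without EAE replicate 1. Between treated and untreated EAE it was 0, 2 with DESeq2 (Ccl6 and Cxcl10) and 0 in every fit that left out a library, and between treated and naive cortex it was 0 throughout. The cause of these differences was not tested. A replicate block in the fit of all 9 libraries called 0 members in each of the 3 comparisons, so it changed no call. A replicate block in a fit of only the compared groups, chosen after seeing the data, called 3 members between EAE and naive cortex (Ackr1 and Cxcl10 higher, Ccl27a lower; 25 members tested) and 0 in the other comparisons. Same-numbered libraries correlated at 0.075, 0.141 and 0.432 for EAE with naive, and at -0.257, -0.182 and 0.257 for treated with naive. No label states that they share more than a number. Under the block the log2 fold change of Ccl21c between treated and untreated EAE turned to 0.004 (0.007 with only the compared groups). That of Ccl27b between treated and naive cortex turned to -0.036 (-0.072 with only the compared groups), and that of Ccl27a to -0.003 in the latter fit.

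Leaving out 1 library at a time turned the sign of 26 of 72 named log2 fold changes in at least 1 fit; none of these was past the threshold. For EAE against naive the ranges were Ccl21c (-0.43 to 0.56), Ccl21d (-0.099 to 0.45), Cxcl14 (-0.074 to 0.11). For treated against untreated EAE they were Ackr1 (-0.59 to 0.39), Ackr2 (-0.45 to 0.26), Ackr3 (-0.16 to 0.050), Ccl12 (-1.58 to 0.87), Ccl21c (-0.30 to 0.49), Ccl21d (-0.70 to 0.021), Ccl28 (-0.67 to 0.26), Ccl8 (-1.49 to 0.99), Cxcl14 (-0.097 to 0.089). For treated against naive they were Ackr2 (-0.18 to 0.53), Ccl17 (-0.12 to 0.41), Ccl21b (-0.30 to 0.32), Ccl21c (-0.18 to 0.50), Ccl21d (-0.53 to 0.20), Ccl25 (-0.066 to 0.13), Ccl27a (-0.23 to 0.19), Ccl27b (-0.36 to 0.33), Ccl28 (-0.26 to 0.67), Ccl6 (-0.63 to 0.10), Cx3cl1 (-0.17 to 0.079), Cxcl10 (-1.12 to 1.22), Cxcl12 (-0.034 to 0.37), Cxcl14 (-0.072 to 0.081). The median of the tested members stayed between 0.46 and 0.61 for EAE against naive, between -0.60 and -0.20 for treated against EAE and between 0.02 and 0.32 for treated against naive. The number of members that reach 1 CPM was 27 with plain library totals, 35 at a limit of 0.5 CPM, 21 at 2 CPM and 20 where at least 3 libraries had to reach 1 CPM. Each of the low members rests on few counts and 3 mice a group, so single libraries weigh on its value.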
